A study of Mus musculus with 17 samples.

Results

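The response of LYVE1+CX3CR1+ synovial macrophages to circulating immune complexes was compared, gene by gene, with the response that both MHCII+ macrophage subsets of the same tissue shared on average. The response of a subset was the log2 ratio of its level after immune complexes (IC) to its level in controls. The difference was the LYVE1+CX3CR1+ response minus the mean of the MHCII+CD11c- and MHCII+CD11c+ responses, so a gene with a negative difference rose less, or fell more, in LYVE1+CX3CR1+ macrophages. All 17 libraries of the series entered the comparison, and 15272 of 22859 genes passed the filter on low counts and were its members. Every mouse was labelled Fcgr2b-KO, the controls too, so no comparison with intact Fcgr2b was made here. Per the study's methods, mice were 8 to 20 weeks old unless stated otherwise. They were controls (labelled Control and Healthy), whose treatment is not given further, or had received IC of ovalbumin and anti-ovalbumin antibody into a vein 8 h before the synovium was taken. The labels Lyve1, IAIE and CD11c were read as the subsets of the study. Macrophages were sorted as LYVE1+CX3CR1+ (3 control and 3 IC libraries), MHCII+CD11c- (3 and 3) and MHCII+CD11c+ (3 and 2), and total RNA was sequenced. The labels do not say whether libraries with the same number came from the same mouse, and p-values measure only the spread between these libraries, which may be technical.

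Fc gamma receptors bind the constant part of IgG and, when clustered by immune complexes, signal through the Fc receptor gamma chain and the kinase Syk to activate macrophages. FcγRIIb, the product of Fcgr2b, is the inhibitory member of the family, and its loss lowers the threshold for activation. Macrophages of the mouse synovial lining express LYVE1 and CX3CR1, whereas MHCII+ macrophages lie mostly in the sublining and present antigen.

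The sorted subsets carried their defining markers. The 11 MHC class II genes summed to between 38.1 and 189.5 CPM (counts scaled to library size) in LYVE1+CX3CR1+ libraries and to between 11410 and 35790 CPM in MHCII+ libraries. Itgax, which encodes CD11c, lay between 275.3 and 443.1 CPM in MHCII+CD11c+ libraries, between 8.24 and 16.1 CPM in MHCII+CD11c- libraries and between 0 and 4.68 CPM in LYVE1+CX3CR1+ libraries. The mean level of Lyve1 was 1955 CPM in LYVE1+CX3CR1+ controls, 851.6 CPM in MHCII+CD11c- controls and 145.7 CPM in MHCII+CD11c+ controls. Fcgr2b still had between 167 and 1168 counts in every library labelled Fcgr2b-KO. The counts cover the whole gene and the deleted part is not named in the sources used here, so they check nothing about the deletion. Library totals ran from 2301913 to 7248939 counts, and the LYVE1+CX3CR1+ IC libraries were the shallowest group (2301913 to 3348248).

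Of 15272 genes, 7 were called in the difference (edgeR quasi-likelihood test, Benjamini-Hochberg adjusted p under 0.05), which is 0.0458% of the genes tested. The lower response in LYVE1+CX3CR1+ macrophages was found for 6 of them, H2-Eb1, Slc37a2, Tgtp2, Sdc4, Lpl and Phf11d. Runx3 alone had the higher response. The difference from MHCII+CD11c- macrophages was called for 4 genes (0.0262%: H2-Eb1, Tgtp2, Sdc4 and Runx3), and the difference from MHCII+CD11c+ macrophages for 5 (0.0327%: H2-Eb1, Slc37a2, Map3k6, Tgtp2 and Runx3). Both MHCII+ responses, set against each other with the same test, differed for 0 genes, with 0.315 as the smallest adjusted p. An unadjusted p under 0.05 was held by 496 genes, where 764 were expected by chance. DESeq2 called 2 genes there. Single libraries moved these counts. The pooled difference had 42 called genes without MHCII+CD11c+ control 2, 12 without LYVE1+CX3CR1+ IC 1, 11 without LYVE1+CX3CR1+ IC 2, and 4 without MHCII+CD11c- control 1, MHCII+CD11c- control 3 or MHCII+CD11c- IC 2. The difference from the MHCII+CD11c- subset had 7 without MHCII+CD11c+ control 1, MHCII+CD11c+ control 2 or LYVE1+CX3CR1+ IC 1, 2 without MHCII+CD11c- control 1 or MHCII+CD11c- IC 3, and 1 without MHCII+CD11c- control 3 or MHCII+CD11c- IC 2. The difference from the MHCII+CD11c+ subset had 56 without MHCII+CD11c+ control 2, 20 without MHCII+CD11c- control 2, 10 without LYVE1+CX3CR1+ IC 2, 8 without LYVE1+CX3CR1+ IC 1 and 3 without MHCII+CD11c+ IC 1. Without MHCII+CD11c+ control 2, 21 genes were called between both MHCII+ responses.

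Sdc4, Slc37a2 and Map3k6 show 3 different ways in which the responses parted. Sdc4 encodes syndecan-4, a transmembrane heparan sulfate proteoglycan of focal adhesions. It had 69.6, 107.3 and 64.5 CPM in LYVE1+CX3CR1+ controls and 98.0, 80.6 and 70.9 CPM after IC. In MHCII+CD11c- macrophages it had 178.1, 189.8 and 145.1 CPM in controls and 532.8, 628.0 and 667.9 CPM after IC, and in MHCII+CD11c+ macrophages 147.2, 195.8 and 109.7 CPM in controls and 355.8 and 353.8 CPM after IC. In both MHCII+ subsets every IC library lay above every control, whereas in LYVE1+CX3CR1+ macrophages the groups overlapped. The responses were 1.83 ± 0.22 (log2 fold change ± SE, adjusted p = 0.000125) in MHCII+CD11c- macrophages, 1.23 ± 0.23 (adjusted p = 0.0244) in MHCII+CD11c+ macrophages and 0.05 ± 0.22 (adjusted p = 0.959) in LYVE1+CX3CR1+ macrophages. The difference of -1.48 ± 0.27 log2 units had an adjusted p of 0.0411. The call was near the threshold: over the 17 fits that leave out 1 library, the adjusted p ran from 0.00422 to 0.153, and it stayed under 0.05 in 5 of them (without MHCII+CD11c- control 2, MHCII+CD11c- IC 1, MHCII+CD11c+ control 2, LYVE1+CX3CR1+ control 3 or LYVE1+CX3CR1+ IC 1). The call was also lost with DESeq2-style size factors (adjusted p = 0.0865), upper-quartile factors (0.0722), a minimum count of 30 (0.0816), equal depth (0.0785) and voom (0.181). The difference kept its sign in the 28 alternative fits, between -1.59 and -1.18 log2 units. Sdc4 lies on chromosome 2 (mm10, 164424247 to 164443887, minus strand).

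Slc37a2 encodes a sugar phosphate exchanger of the endoplasmic reticulum membrane that is abundant in macrophages. In LYVE1+CX3CR1+ macrophages it had 129.0, 103.2 and 134.7 CPM in controls and 33.1, 35.3 and 31.9 CPM after IC. In MHCII+CD11c- macrophages it had 82.5, 84.3 and 81.3 CPM in controls and 75.8, 87.4 and 53.7 CPM after IC. In MHCII+CD11c+ macrophages it had 19.8, 43.7 and 25.3 CPM in controls and 59.2 and 70.9 CPM after IC. All 3 LYVE1+CX3CR1+ IC libraries were below their controls, the MHCII+CD11c- groups overlapped, and both MHCII+CD11c+ IC libraries were above their controls. The LYVE1+CX3CR1+ response was -1.87 ± 0.26 (adjusted p = 0.000452), against -0.19 ± 0.25 (adjusted p = 0.913) and 1.13 ± 0.28 (adjusted p = 0.134). The difference was -2.34 ± 0.32 log2 units (adjusted p = 0.00129), made up of -1.68 ± 0.36 against MHCII+CD11c- (adjusted p = 0.135, not called) and -2.999 ± 0.38 against MHCII+CD11c+ macrophages (adjusted p = 0.000359). Slc37a2 was called in the pooled difference in each of the 28 alternative fits at that threshold, with adjusted p between 1.13e-06 and 0.0166. It was the only one of the 7 genes of which that held. The gene lies on chromosome 9 (mm10, 37227585 to 37255738, minus strand).

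Map3k6 encodes a mitogen-activated protein kinase kinase kinase of the stress-activated cascade, also known as ASK2. Its levels in LYVE1+CX3CR1+ macrophages were 16.4, 16.5 and 15.6 CPM in controls and 55.3, 83.7 and 60.2 CPM after IC. In MHCII+CD11c- macrophages they were 36.3, 33.1 and 38.1 CPM in controls and 76.1, 91.3 and 124.1 CPM after IC. In MHCII+CD11c+ macrophages they were 88.3, 59.1 and 96.8 CPM in controls and 56.4 and 64.9 CPM after IC. The gene therefore rose without overlap in LYVE1+CX3CR1+ (2.04 ± 0.26, adjusted p = 0.00016) and MHCII+CD11c- macrophages (1.44 ± 0.25, adjusted p = 0.00406), and the MHCII+CD11c+ groups overlapped (-0.42 ± 0.27, adjusted p = 1). Averaging the MHCII+ responses put these unlike values together: the pooled difference of 1.53 ± 0.31 was not called (adjusted p = 0.0573), whereas the difference from MHCII+CD11c+ macrophages was 2.46 ± 0.38 (adjusted p = 0.00547) and that from MHCII+CD11c- macrophages 0.60 ± 0.35 (adjusted p = 0.743). Both MHCII+ responses differed by -1.86 ± 0.37 log2 units, with an unadjusted p of 4.13e-05 and an adjusted p of 0.315. The pooled difference was called without MHCII+CD11c+ control 2 or LYVE1+CX3CR1+ IC 1, with adjusted p between 0.0208 and 0.199 over the fits that leave out 1 library. It was also called by DESeq2 (adjusted p = 0.0021), with no low-count filter (0.0227), with a replicate block within treatment (0.036) and with surrogate variables (0.022), and not with a replicate block of 3 levels (0.0606). Nor was it called with DESeq2-style size factors (0.0733), upper-quartile factors (0.0852), a minimum count of 30 (0.0797) or equal depth (0.0785). Voom (0.181) and 1 MHCII+ group (0.309) did not call it either, so 6 of the 28 alternative fits did. After IC the lowest and highest of the 8 IC libraries were 55.3 and 124.1 CPM, with the LYVE1+CX3CR1+ and MHCII+CD11c+ ranges overlapping. Map3k6 lies on chromosome 4 (mm10, 133240818 to 133252929, plus strand).

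**Figure D1:**
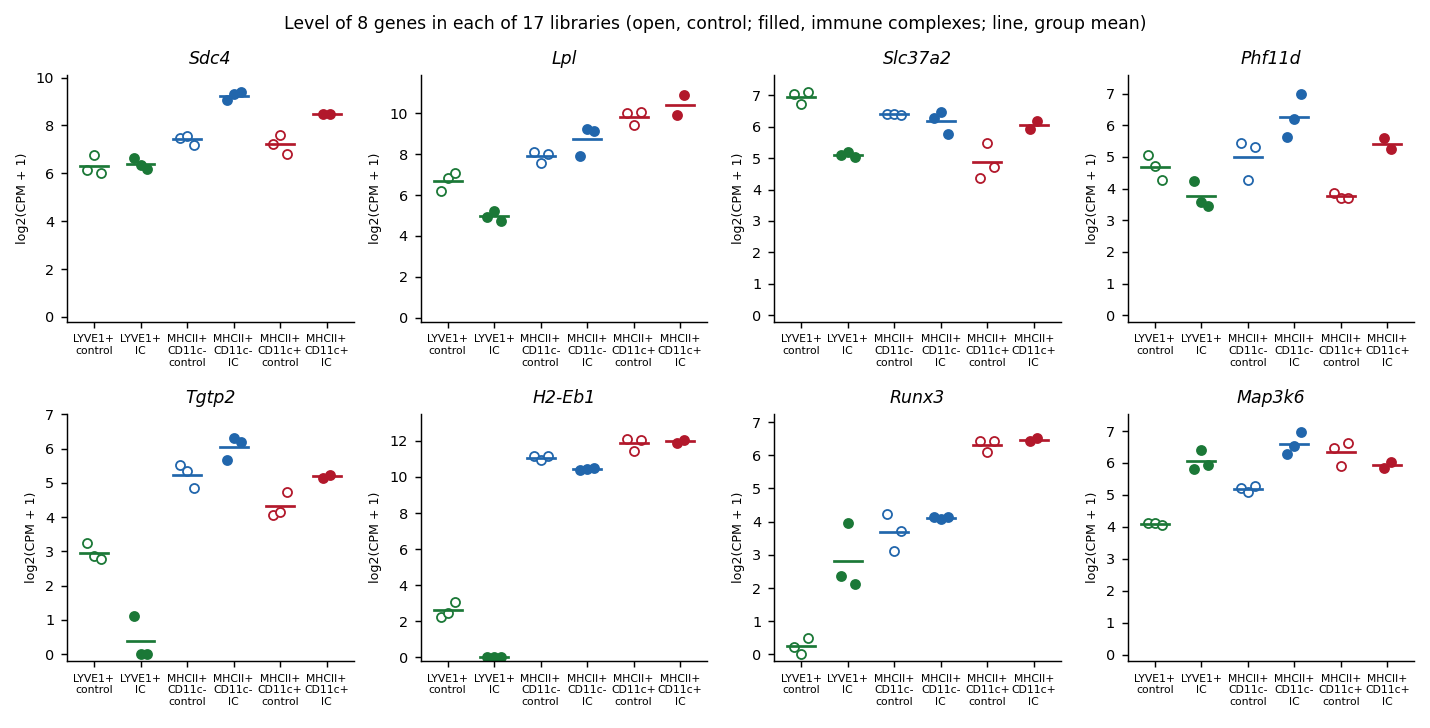
Level of the 7 called genes and Map3k6 in each of the 17 libraries, as log2(CPM + 1) on the vertical axis, by subset and treatment on the horizontal axis. Open circles are controls, filled circles are IC libraries and lines are group means. Sdc4 was higher after IC in both MHCII+ subsets only, Slc37a2 was lower than every control after IC in LYVE1+CX3CR1+ macrophages only, and H2-Eb1 was at 0 in the 3 LYVE1+CX3CR1+ IC libraries.

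H2-Eb1, Tgtp2 and Runx3 were low-level genes in LYVE1+CX3CR1+ macrophages. H2-Eb1 (chromosome 17, mm10, 34305867 to 34316674, plus strand) encodes the beta chain of the MHC class II molecule I-E. It had 24, 17 and 54 counts in LYVE1+CX3CR1+ controls (3.78, 4.60 and 7.54 CPM) and 0 counts in all 3 IC libraries, which makes the level at least 5.19-fold lower after IC when each IC library is set at its floor of 3 counts. In MHCII+ macrophages it had 2249, 1938 and 2285 CPM in MHCII+CD11c- controls and 1325, 1412 and 1463 CPM after IC. MHCII+CD11c+ macrophages had 4472, 2747 and 4217 CPM in controls and 3837 and 4179 CPM after IC. The mean MHCII+ response was -0.28 ± 0.15 (adjusted p = 0.505). The difference was called with an adjusted p of 5.04e-05 and in all 17 fits that leave out 1 library, but not by voom with sample quality weights (adjusted p = 0.353). The subsets were sorted on MHCII, and the part of the gate in the level of this gene was not tested.

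Values of 4 further class II and sublining genes are given by LYVE1+CX3CR1+ library, with the MHCII+ side after them. Cd74, the invariant chain, had 73.6, 97.0 and 87.6 CPM in LYVE1+CX3CR1+ controls and 23.1, 10.1 and 31.5 CPM after IC, and its difference of -1.77 ± 0.35 was not called (adjusted p = 0.0672). H2-Aa fell from 5.36, 17.3 and 8.37 CPM to 1.46, 0 and 0 CPM in LYVE1+CX3CR1+ macrophages (adjusted p = 0.0121 for that response), with a difference whose adjusted p was 0.0896. H2-Ab1 had 19.4, 36.8 and 21.9 CPM in LYVE1+CX3CR1+ controls and 24.6, 9.76 and 10.8 CPM after IC, so that the groups overlapped (-0.76 ± 0.30, adjusted p = 0.245), and its difference was -0.42 ± 0.36 (adjusted p = 0.806). Mgl2, a C-type lectin of sublining macrophages, had 97.3, 94.9 and 130.1 CPM in LYVE1+CX3CR1+ controls and 17.9, 5.67 and 15.8 CPM after IC, and a difference of -2.24 ± 0.42 (adjusted p = 0.0573). In MHCII+CD11c- macrophages Cd74, H2-Aa and H2-Ab1 also fell without overlap. Their lowest controls had 7546, 2134 and 3883 CPM, and their highest IC libraries 5721, 1638 and 2852 CPM. In MHCII+CD11c+ macrophages the groups of these genes overlapped. Mgl2 fell there without overlap, from 662.1, 527.4 and 647.1 to 311.6 and 406.6 CPM, and overlapped in MHCII+CD11c- macrophages. Its mean MHCII+ response was -0.80 ± 0.24 (adjusted p = 0.135). All 4 genes were singled out after their values were seen. Of 9 MHCII-side markers, 1 was called lower (0.0458% of all genes were called) and 5 had an unadjusted p under 0.05 in that direction (7.81% of all genes). Their summed level in LYVE1+CX3CR1+ macrophages went from between 538.5 and 865.9 CPM in controls to between 112 and 177 CPM after IC. In the MHCII+CD11c- subset the sum went from between 19990 and 21530 to between 12770 and 15230 CPM, and in MHCII+CD11c+ macrophages it lay between 25520 and 37830 and between 29080 and 33990 CPM. In bulk samples, fewer cells of a type and less RNA per cell cannot be told apart.

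Tgtp2, an interferon-inducible GTPase, had 54, 23 and 42 counts in LYVE1+CX3CR1+ controls (8.51, 6.22 and 5.86 CPM) and 4, 0 and 0 counts after IC. It had 44.8, 39.4 and 28.1 CPM in MHCII+CD11c- controls and 49.4, 77.9 and 72.1 CPM after IC, and 15.7, 16.7 and 25.3 CPM in MHCII+CD11c+ controls and 34.4 and 36.8 CPM after IC. It was thus lower without overlap in 1 subset and higher without overlap in the other two. The LYVE1+CX3CR1+ response was -3.89 ± 0.63 (adjusted p = 0.00241), the mean MHCII+ response 0.86 (adjusted p = 0.161), and the difference -4.75 ± 0.69 (adjusted p = 0.00213). It was called in all 17 fits that leave out 1 library, and not at equal depth (adjusted p = 0.0785) or by voom (0.206). Tgtp2 (chromosome 11, mm10, 49057194 to 49064206, minus strand) has a near-identical neighbour, Tgtp1, and the counting may have split reads between them.

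Runx3, a transcription factor of the Runt family, was the called gene with the higher LYVE1+CX3CR1+ response. It had 1, 0 and 3 counts in LYVE1+CX3CR1+ controls and 14, 46 and 8 counts after IC, a ratio of 32.5 on scaled totals (95% exact interval 12.1 to 123, counting error only). The IC libraries held 4.10, 14.5 and 3.32 CPM, with the second library more than both others together. In MHCII+CD11c- macrophages the level was 17.9, 7.60 and 12.0 CPM in controls and 16.6, 15.9 and 16.8 CPM after IC, and in MHCII+CD11c+ macrophages 84.9, 67.1 and 84.7 CPM in controls and 84.8 and 90.3 CPM after IC. After IC, LYVE1+CX3CR1+ macrophages therefore stayed below every MHCII+ IC library. The difference was 4.59 ± 0.74 log2 units (adjusted p = 0.00904), called in 16 of 17 fits that leave out 1 library, the exception being LYVE1+CX3CR1+ control 1 (adjusted p = 0.0654). At equal depth the adjusted p was 0.101 and by voom 0.181. Runx3 lies on chromosome 4 (mm10, 135120652 to 135177990, plus strand).

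Lpl and Phf11d had higher levels and adjusted p-values close to the threshold (0.0462 for each). Lpl (chromosome 8, mm10, 68880491 to 68907448, plus strand) encodes lipoprotein lipase, which releases fatty acids from triglyceride-rich particles. It fell in LYVE1+CX3CR1+ macrophages from 73.4, 112.2 and 133.0 CPM to 29.3, 35.9 and 25.7 CPM (-1.81 ± 0.35, adjusted p = 0.0252). Within the MHCII+CD11c- subset it had 275.3, 190.5 and 258.4 CPM in controls and 242.8, 602.4 and 557.5 CPM after IC, and in MHCII+CD11c+ macrophages 1043, 698.1 and 1069 CPM in controls and 972.5 and 1939 CPM after IC. IC and control libraries overlapped in both MHCII+ subsets, and the difference was -2.60 ± 0.43. Phf11d (chromosome 14, mm10, 59347407 to 59365470, minus strand) encodes a PHD finger protein with close paralogs. It had 32.3, 25.1 and 18.4 CPM in LYVE1+CX3CR1+ controls and 17.9, 11.02 and 9.96 CPM after IC (-0.95 ± 0.38, adjusted p = 0.240). Within the MHCII+CD11c- subset it had 42.0, 18.2 and 38.8 CPM in controls and 48.3, 72.1 and 126.3 CPM after IC, and in MHCII+CD11c+ macrophages 13.6, 11.9 and 12.1 CPM in controls and 47.9 and 36.7 CPM after IC. Its mean MHCII+ response was 1.54 (adjusted p = 0.00269) and its difference -2.49 ± 0.47. With 1 library left out, Lpl was called in 4 of 17 fits (without LYVE1+CX3CR1+ control 1, MHCII+CD11c+ control 2, MHCII+CD11c- IC 1 or MHCII+CD11c+ IC 1; adjusted p 0.00109 to 0.158). Phf11d was called in 3 (without MHCII+CD11c+ control 2, MHCII+CD11c- IC 1 or LYVE1+CX3CR1+ IC 1; 0.0248 to 0.153). Both calls were also lost with DESeq2-style size factors (adjusted p = 0.107 for Lpl and 0.103 for Phf11d), upper-quartile factors (0.101 and 0.0852), a minimum count of 30 (0.0698 and 0.0921), equal depth (0.0785 and 0.101) and voom (0.353 and 0.338). The call of Lpl was lost with no low-count filter (0.124) and with surrogate variables (0.0502) as well.

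**Figure D2:**
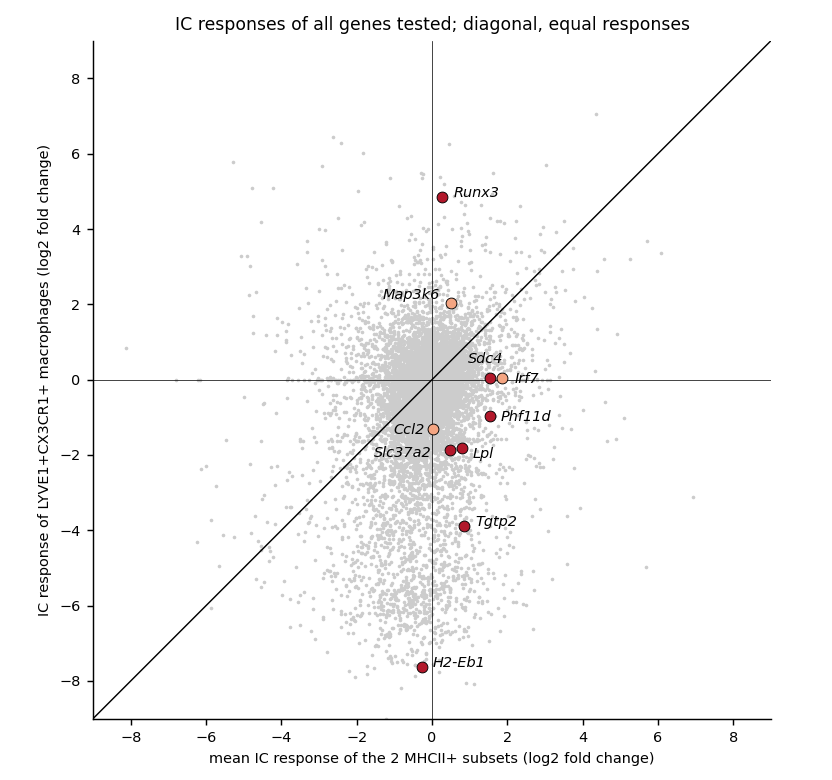
LYVE1+CX3CR1+ response (vertical axis, log2 fold change) against the mean MHCII+ response (horizontal axis, log2 fold change) for 15270 of 15272 genes tested, 2 lying outside the axes. The diagonal marks equal responses, dark red points are the 7 called genes and orange points are 3 named genes that were not called. Sdc4 lies near 0 on the vertical axis and Slc37a2 near -1.87, both to the right of the diagonal.

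The next smallest p-values on the lower side belonged to Arc, Caprin2, Ccl2 and Aurkb, which were not called (adjusted p = 0.0573 for each). Arc, an activity-regulated cytoskeletal protein, had 26.9, 32.2 and 26.1 CPM in LYVE1+CX3CR1+ controls and 14.0, 14.2 and 13.3 CPM after IC, a response of -1.03 ± 0.24 (adjusted p = 0.0386). Its MHCII+CD11c- levels were 101.5, 74.2 and 83.9 CPM in controls and 112, 129.6 and 164.6 CPM after IC, and its MHCII+CD11c+ levels 31.7, 22.9 and 26.9 and then 34.7 and 32.6 CPM. Caprin2 and the mitotic kinase Aurkb had 0 counts in the 3 LYVE1+CX3CR1+ IC libraries against 141 and 112 counts in the controls, at least 7.74-fold and 6.21-fold lower. On the higher side the 9 genes after Runx3 were Map3k6, Cd24a, Rpl37a, 4930517E14Rik, Kcna3, Or1ab2, Upb1, Cep128 and Gm10532, none called. Cd24a, a small glycosylated surface protein, had 1.10, 5.95 and 1.12 CPM in LYVE1+CX3CR1+ controls and 11.1, 7.87 and 6.22 CPM after IC, and a difference of 2.62 ± 0.59 (adjusted p = 0.115). Kcna3, a voltage-gated potassium channel, had a difference of 1.86 ± 0.50 (adjusted p = 0.190), and Cep128, a centriole protein, 1.19 ± 0.32 (0.190). Rpl37a, a protein of the large ribosomal subunit, had 0.98 ± 0.25 (0.173). The lincRNA 4930517E14Rik, Or1ab2, Upb1 and Gm10532 rested on 6, 1, 1 and 4 counts in LYVE1+CX3CR1+ controls and 35, 21, 9 and 19 after IC. All 21 counts of Or1ab2 and 8 of the 9 of Upb1 came from LYVE1+CX3CR1+ IC 3. The MHCII+ side moved too: the control libraries of the MHCII+CD11c- subset held 14, 9 and 10 counts of Or1ab2 and its IC libraries 1, 1 and 0, with 18, 16 and 38 and then 2, 0 and 0 for Upb1.

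Over the whole table, unadjusted p-values under 0.05 went to 1193 genes with the lower LYVE1+CX3CR1+ response (7.81% of the genes tested) and to 214 with the higher one (1.40%). The median difference over all genes was -0.17 log2 units, and 61.4% of genes lay below 0. With DESeq2-style size factors in place of TMM the median was -0.02, 51.7% of genes lay below 0, the split was 843 lower and 416 higher, and 3 lower genes and 1 higher gene were called. The size of the shift therefore depended on the scaling, and lists are set beside the median of all genes below. Of the 1193 lower genes, 744 had a LYVE1+CX3CR1+ response below 0 and a mean MHCII+ response above 0, 398 had both below 0 and 51 both above 0. Of the 214 higher genes, 192 had the LYVE1+CX3CR1+ response above 0 and the mean MHCII+ response below 0. Among all 15272 genes, 3768 had the first of these opposite patterns (LYVE1+CX3CR1+ below 0, MHCII+ above 0) and 2454 the reverse. Picking genes by the difference favours opposite signs, so these splits partly reflect the selection. Taken singly, the responses gave 147 called genes in LYVE1+CX3CR1+ macrophages (0.963%; 23 higher and 124 lower) and 201 for the mean of the MHCII+ subsets (1.32%; 167 higher and 34 lower).

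Detection moved with the lower side. Thinned to equal depth, the LYVE1+CX3CR1+ IC libraries held between 11547 and 13840 genes with at least 1 count, whereas the other 5 groups held between 13801 and 17734. All 3 LYVE1+CX3CR1+ IC libraries were at or below 3 counts for 519 of the 1193 lower genes (43.5%) and for 1762 of all genes tested (11.5%). By quartile of mean abundance, from the lowest to the highest, the median difference was -0.69, -0.19, -0.10 and -0.15 log2 units. The 7 called genes were all in the upper 2 quartiles (3 and 4 genes), where 34 and 8 genes had all LYVE1+CX3CR1+ IC libraries at the floor. Mean abundance was taken over all groups, so a gene in these quartiles could still be low in LYVE1+CX3CR1+ macrophages. Among the 6 called lower genes, H2-Eb1 had 0 counts in all 3 LYVE1+CX3CR1+ IC libraries, and Tgtp2 had 4, 0 and 0. Runx3, the 1 called higher gene, was at the floor in all LYVE1+CX3CR1+ controls (1, 0 and 3 counts). The part of library complexity in these differences was not tested.

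**Figure D3:**
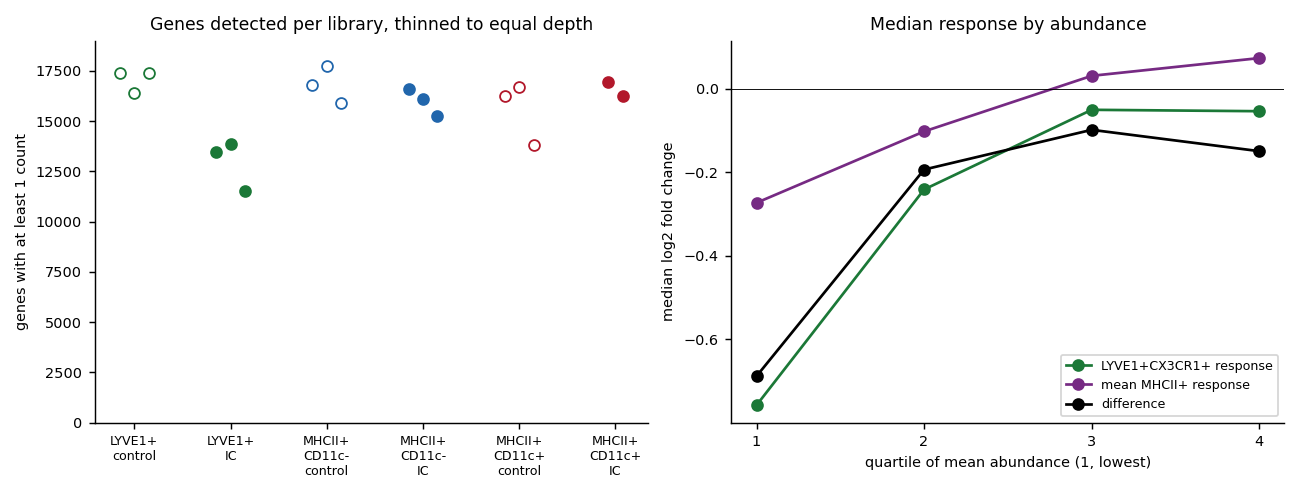
Left, number of genes with at least 1 count in each of the 17 libraries after thinning to the smallest total, by group; open circles are controls and filled circles IC libraries. Right, median log2 fold change by quartile of mean abundance for the LYVE1+CX3CR1+ response, the mean MHCII+ response and their difference. The LYVE1+CX3CR1+ IC libraries sit between 11547 and 13840 genes, and the median difference is -0.69 in the lowest quartile.

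Interferon-stimulated genes as a list had a median difference below that of all genes. These genes carry antiviral and signalling functions and are switched on when type I or type II interferon binds its receptor. All 21 listed genes were tested: 0 were called, 13 had an unadjusted p under 0.05 on the lower side and 0 on the higher side, against 7.81% and 1.40% of all genes. Their median difference was -1.34 log2 units, beside -0.17 for all genes, and 20 of 21 lay below 0. Under DESeq2-style size factors the median was -1.18 beside -0.02, with 9 lower genes. The responses behind it had medians of 0.01 for LYVE1+CX3CR1+ macrophages, 1.10 for the MHCII+CD11c- and 1.49 for the MHCII+CD11c+ subset. In the mean MHCII+ response 9 of the 21 genes were called higher, and in LYVE1+CX3CR1+ macrophages 0 were called.

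Irf7, the transcription factor that drives interferon-alpha genes, had the smallest p of the list. It had 52.4, 39.7 and 49.8 CPM in LYVE1+CX3CR1+ controls and 55.6, 39.3 and 52.3 CPM after IC. Within the MHCII+CD11c- subset it had 136.9, 59.4 and 117.4 CPM in controls and 190.2, 261.6 and 407.3 CPM after IC, and in MHCII+CD11c+ macrophages 23.6, 17.3 and 44.6 CPM in controls and 165.9 and 102.2 CPM after IC. The groups overlapped in LYVE1+CX3CR1+ macrophages and did not overlap in either MHCII+ subset. Its mean MHCII+ response was 1.86 (adjusted p = 0.00121) and its difference -1.81 ± 0.45 (adjusted p = 0.182, not called). Ifit1, Oasl2 and Rsad2, singled out after their values were seen, had the same form. Ifit1, which binds foreign RNA ends, had a LYVE1+CX3CR1+ response of -0.35 ± 0.44 and a mean MHCII+ response of 1.73 ± 0.32. Oasl2 had 0.01 ± 0.32 and 1.31 ± 0.24. Rsad2, which encodes viperin, had -0.40 ± 0.79 and 2.69 ± 0.58, with 29.0, 0.63 and 27.0 CPM in the LYVE1+CX3CR1+ IC libraries. The mean MHCII+ responses of these 3 genes were called (adjusted p = 0.00436, 0.00698 and 0.0474), and their differences were not (0.182, 0.285 and 0.351). Usp18, which removes ISG15 from proteins and was also singled out after its values were seen, had a difference near 0 (0.10 ± 0.55).

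**Figure D4:**
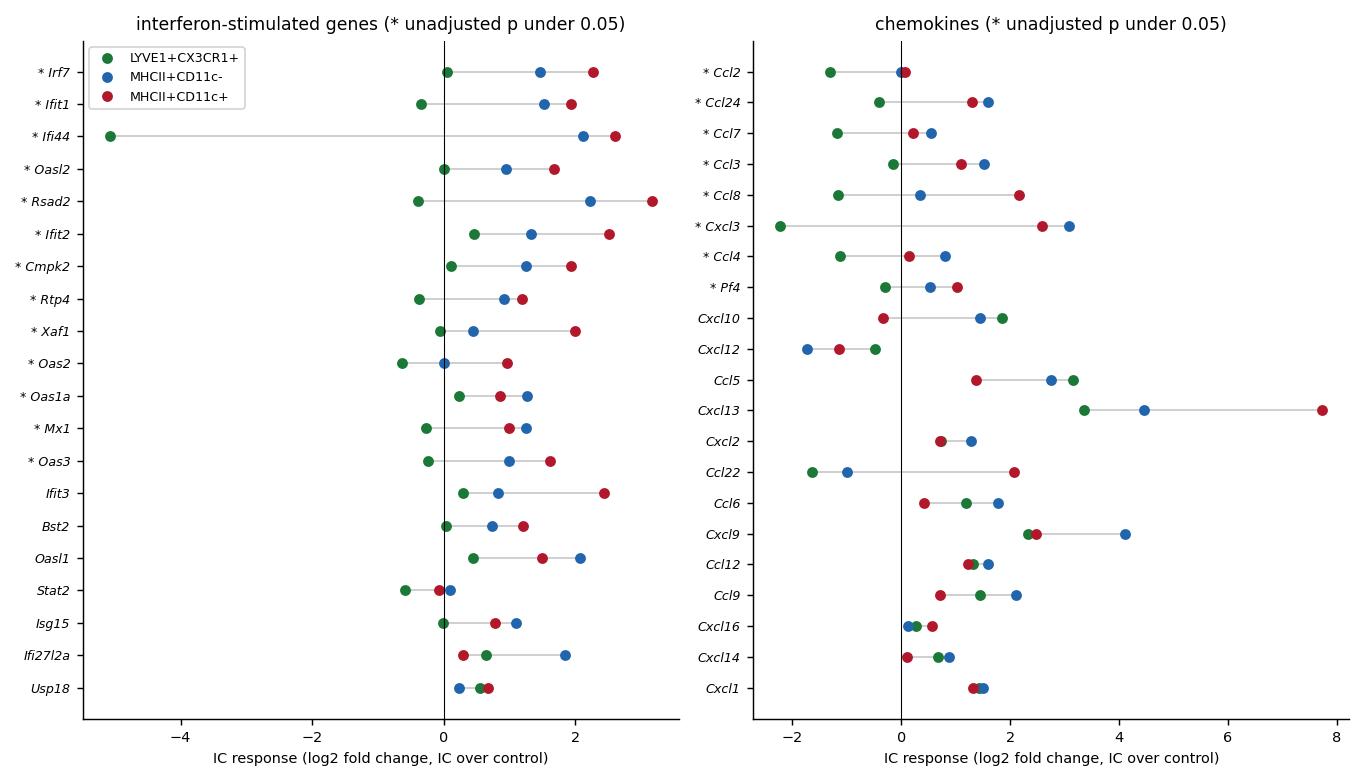
IC response (horizontal axis, log2 fold change of IC over control) of 20 of the 21 interferon-stimulated genes and of 21 chemokines in LYVE1+CX3CR1+ macrophages (green) and in the MHCII+CD11c- (blue) and MHCII+CD11c+ (red) subsets, ordered from top by the p of the difference; asterisks mark an unadjusted p under 0.05. In the left panel most LYVE1+CX3CR1+ points lie near 0 with both MHCII+ points to their right, and in the right panel the genes part in the upper rows and run together in the lower ones.

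Promoters of the interferon-stimulated genes and of Tgtp2 are shown because 9 of the listed genes rose in the mean MHCII+ response and Tgtp2 is interferon-inducible. The window ran from 250 bases before to 50 bases after each RefSeq start site (GRCm38.p6) and was searched on both strands for the core of the interferon-stimulated response element (TTTC, any 2 bases, TTTC). Of 21 listed genes, 15 matched the promoter table, and 8 of them held the motif, whereas 407 of 10441 tested genes with a promoter did (3.90%), and 3.44% of all 32851 promoters. The promoters of Irf7 and Oasl2 held no match, whereas those of Ifit1 and Rsad2 did. One site each of 5 of these genes and of Tgtp2 is printed with 6 bases on either side, with the motif in capitals and on the strand that spells it; matches can overlap.
Ifit1, chr19:34640798-34640819, plus strand: tctcagTTTCAGTTTCtcactg
Isg15, chr4:156200875-156200896, plus strand: tttctgTTTCGGTTTCcttttc
Oas3, chr5:120777719-120777740, plus strand: cttcacTTTCGTTTTCtcctcc
Rsad2, chr12:26456557-26456578, minus strand: tccaacTTTCATTTTCagaaaa
Bst2, chr8:71537581-71537602, plus strand: gcagccTTTCAGTTTCattttc
Tgtp2, chr11:49064267-49064288, plus strand: agtaggTTTCGGTTTCgattcc
The Tgtp2 match began 70 bases before the start site. A match is a description of these letters and not evidence of binding.

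Slc37a2 held a single match to TGANTCA, the AP-1 type motif, which 7.81% of all promoters held (6.4% of tested genes with a promoter). Its promoter, chr9:37255689-37255988, minus strand, is given because it belongs to the gene called in all of the alternative fits, with the match in capitals.
Slc37a2: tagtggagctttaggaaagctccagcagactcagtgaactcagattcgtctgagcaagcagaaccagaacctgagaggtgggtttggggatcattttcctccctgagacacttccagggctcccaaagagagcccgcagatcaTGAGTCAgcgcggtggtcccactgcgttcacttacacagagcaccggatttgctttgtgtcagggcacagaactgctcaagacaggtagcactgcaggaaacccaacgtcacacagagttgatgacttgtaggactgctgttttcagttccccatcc
The promoters of Sdc4, H2-Eb1, Runx3 and Phf11d held none of the 5 motifs searched, and that of Map3k6 held 1 match to the glucocorticoid receptor motif (ACA, any 3 bases, TGT), which 6.85% of promoters held. The other motifs were CACGTG, the E-box of clock factors, in 7.15% of promoters, and a narrow form of the NF-kappaB motif (GGGA, any 2 bases, TTCC). That form was in 1.47% of promoters, and 4 of 15 chemokine genes with a promoter held it. The Sdc4 promoter held ggggaattcc, which differs from that form at 1 base. Looser forms of the motifs were not searched, so a promoter without a match may still hold such a site.

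Chemokines parted by gene. Of 21 tested, 0 were called, 8 had an unadjusted p under 0.05 on the lower side and 0 on the higher side (7.81% and 1.40% of all genes), and the median difference was -0.96, beside -0.17 for all genes. That median rested on single libraries: it ran from -1.34 to -0.19 over the fits that leave out 1 library, the end values coming without LYVE1+CX3CR1+ IC 1 and without MHCII+CD11c+ IC 1. Ccl2, which recruits CCR2+ monocytes, had 191.8, 307.3 and 220.5 CPM in LYVE1+CX3CR1+ controls and 103.3, 101.3 and 86.3 CPM after IC, so that each IC library was lower than each control (-1.30 ± 0.22, adjusted p = 0.00332). Within the MHCII+CD11c- subset Ccl2 had 291.1, 410.9 and 429.6 CPM in controls and 302.4, 398.4 and 429.8 CPM after IC, and in MHCII+CD11c+ macrophages 175.9, 276.8 and 288.6 CPM in controls and 250.5 and 268.1 CPM after IC. Its mean MHCII+ response was 0.03 (adjusted p = 0.979), and the difference of -1.34 ± 0.27 was not called (adjusted p = 0.0573). In Ccl24, an eosinophil attractant, the MHCII+ side moved instead. It had 117.0, 70.0 and 135.4 CPM in LYVE1+CX3CR1+ controls and 94.2, 88.4 and 61.0 CPM after IC. The MHCII+CD11c- libraries had 232.5, 125.8 and 310.3 CPM in controls and 436.1, 682.8 and 897.6 CPM after IC, and the MHCII+CD11c+ libraries 34.2, 45.7 and 50.7 and then 95.5 and 119.1 CPM. Its mean MHCII+ response was called (1.45 ± 0.24, adjusted p = 0.00333), with a difference of -1.85 ± 0.40 (adjusted p = 0.115). Ccl3 was of the same kind, with a LYVE1+CX3CR1+ response of -0.15 ± 0.29, a mean MHCII+ response of 1.31 ± 0.22 (adjusted p = 0.00195) and a difference of -1.46 ± 0.37 (0.173). Ccl7 and Ccl8 had differences of -1.55 ± 0.37 (0.169) and -2.41 ± 0.64 (0.230). Other chemokines had similar responses on both sides. The neutrophil attractant Cxcl1 had 1.42 ± 0.56 in LYVE1+CX3CR1+ and 1.41 ± 0.41 in MHCII+ macrophages, neither called. Ccl9 rose on both sides, by 1.45 ± 0.24 (adjusted p = 0.00436) and 1.41 ± 0.18 (0.000133). Apart from Ccl2, these chemokines were chosen after their values were seen.

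A list of 6 genes held the IgG receptors Fcgr1, Fcgr2b, Fcgr3 and Fcgr4, the signalling gamma chain Fcer1g and the neonatal Fc receptor Fcgrt. Among them 0 were called, 1 was lower (Fcgr1) and 1 higher (Fcgr2b) at an unadjusted p under 0.05, and the median difference was -0.10, beside -0.17 for all genes. Fcgr1, the high-affinity activating receptor, had 58.7, 60.3 and 63.6 CPM in LYVE1+CX3CR1+ controls and 110.6, 57.9 and 111.2 CPM after IC. Within the MHCII+CD11c- subset it had 131.6, 76.0 and 140.4 CPM in controls and 226.2, 324.1 and 299.7 CPM after IC, and in MHCII+CD11c+ macrophages 17.02, 19.9 and 0.76 CPM in controls and 107.5 and 91.3 CPM after IC. It rose in the mean MHCII+ response (2.10, adjusted p = 0.0217), and its difference was -1.49 ± 0.66 (adjusted p = 0.527). Fcgr2b counts had 111.2, 84.9 and 116.1 CPM in LYVE1+CX3CR1+ controls and 164.4, 144.8 and 69.3 CPM after IC, and the difference was 0.68 ± 0.33 (adjusted p = 0.538). These counts come from mice labelled as lacking the gene, and Fcgr2b was singled out after its values were seen. Of 19 genes of Fc receptor signalling, 3 had an unadjusted p under 0.05 on the lower side and 1 on the higher side, with a median of -0.23. The adaptor Pik3ap1 had the smallest p (-0.87 ± 0.28, adjusted p = 0.290). Card9, an adaptor below Syk, had the single higher value of 0.90 ± 0.30 (adjusted p = 0.294) and was singled out after its values were seen.

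The remaining lists had no called gene other than those described. Among 11 macrophage identity genes, 10 lay below 0 with either scaling (medians -0.46 and -0.32), and the transcription factor Maf had the smallest p, with 653.7, 705.4 and 703.7 CPM in LYVE1+CX3CR1+ controls and 617.3, 553.0 and 626.8 CPM after IC, and a difference of -1.04 ± 0.26 (adjusted p = 0.169). Maf had 61.9, 63.5 and 51.4 CPM in MHCII+CD11c+ controls and 165.3 and 143.3 CPM after IC. In MHCII+CD11c- macrophages its groups overlapped, with 740.5, 319.5 and 579.8 CPM in controls and 598.4, 670.6 and 735.6 CPM after IC (0.29 ± 0.20), and the difference from that subset alone was -0.49 ± 0.29 (adjusted p = 0.751). Of 9 LYVE1-side markers 1 had a lower unadjusted p under 0.05, Timd4 (-1.26 ± 0.38, adjusted p = 0.256), which rose in MHCII+CD11c+ macrophages from 9.78, 11.9 and 12.5 to 52.2 and 48.6 CPM (adjusted p = 0.0114). All 13 heat shock genes lay below 0 with TMM and with DESeq2-style size factors (medians -0.31 and -0.16) with Dnajb1 at the smallest p (-0.47 ± 0.21, adjusted p = 0.503). Of 22 lysosomal genes 4 were lower at an unadjusted p under 0.05, led by the protease Ctsl (-1.45 ± 0.39, adjusted p = 0.224). The lysosomal median was -0.15, 19 genes lay below 0 with TMM and 11 with DESeq2-style size factors, so its direction depended on the scaling. Among 17 clock genes, 1 was lower at that threshold, the core activator Arntl (-1.56 ± 0.39, adjusted p = 0.169), which fell in LYVE1+CX3CR1+ macrophages from 129.0, 133.0 and 126.6 to 23.4, 35.9 and 23.2 CPM (adjusted p = 0.000652). Arntl also fell without overlap in MHCII+CD11c- macrophages, from 83.4, 104.6 and 83.9 to 44.1, 64.3 and 49.3 CPM. Its MHCII+CD11c+ groups overlapped, and its mean MHCII+ response was -0.68 ± 0.23 (adjusted p = 0.188). Of 13 prostaglandin and leukotriene genes 2 were lower at an unadjusted p under 0.05, with Ptgs1, a cyclooxygenase, at 62, 14 and 69 counts in LYVE1+CX3CR1+ controls and 0, 5 and 0 after IC (adjusted p of the difference 0.182).

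The inflammatory programs that follow Fc receptor signalling had medians between -0.24 and -0.06, beside -0.17 for all genes. The values were -0.06 for 18 NF-kappaB genes (1 higher and 1 lower at an unadjusted p under 0.05, led by Nfkbid at -0.59 ± 0.22, adjusted p = 0.413), -0.17 for 23 immediate early genes (2 and 1, led by Egr2 at -0.73 ± 0.32, 0.494) and -0.13 for 34 genes of the MAP kinase cascade (1 and 2, led by Map3k6). The 16 cytokine genes had -0.24 (0 and 2), with Il1r2, the decoy receptor of interleukin-1, at 6, 2 and 6 counts in LYVE1+CX3CR1+ controls and 0 after IC. Glucocorticoid-induced genes had a median of 0.30 over 13 genes (0 and 0), and Tsc22d3 rose in both LYVE1+CX3CR1+ (0.94 ± 0.20, adjusted p = 0.0251) and MHCII+ macrophages (1.37, adjusted p = 1.49e-05), with a difference of -0.44 ± 0.25 (adjusted p = 0.648). The other 17 of 18 syndecan and heparan sulfate genes held 2 with an unadjusted p under 0.05 on the lower side and 0 called, and the list's median was -0.06. Of 21 genes of sugar phosphate transport and glycolysis, Slc37a2 was the only lower one at an unadjusted p under 0.05 and 2 were higher at that threshold, with a median of -0.05. Of 11 MHC class II genes 1 was called and 4 were lower at an unadjusted p under 0.05 (median -0.49).

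Some markers of other cells moved with IC. The summed neutrophil markers lay between 38.4 and 92.7 CPM in LYVE1+CX3CR1+ controls and between 12.6 and 32.8 CPM after IC, with 9 of 12 markers at 0 after IC. Of these, Ly6g, Mmp8 and Cxcr2 were already at 0 in all LYVE1+CX3CR1+ controls, and S100a8 and S100a9 averaged 0.663 and 1.63 CPM there. They lay between 221.4 and 616.4 and then 100.4 and 165.4 CPM in MHCII+CD11c- macrophages, and between 113.1 and 635.3 and then 32.9 and 33.7 CPM in MHCII+CD11c+ macrophages, with Retnlg at the smallest p of the list (adjusted p = 0.245). Dendritic cell markers summed to between 35.1 and 50.4 CPM in LYVE1+CX3CR1+ controls and to between 8.50 and 16.2 CPM after IC (smallest p, Siglech, adjusted p = 0.450). They also fell without overlap in MHCII+CD11c- macrophages, from between 108.9 and 275.5 to between 80.6 and 104.7 CPM, and overlapped in MHCII+CD11c+ macrophages. T and B lymphocyte markers summed to between 0 and 1.81 CPM in LYVE1+CX3CR1+ controls, too low to show a fall. All 5 in the table were at 0 in the 3 LYVE1+CX3CR1+ IC libraries (smallest p, Cd3d, adjusted p = 0.503). In those libraries monocyte markers summed to between 3115 and 3545 CPM (controls 3267 to 4400; Vcan, 0.695), fibroblast markers to between 116.4 and 199.5 CPM (controls 73.1 to 103; Prg4, 0.727) and endothelial markers to between 0.88 and 36.5 CPM (controls 1.35 to 5.16; Kdr, 0.337). In MHCII+CD11c+ macrophages endothelial markers rose without overlap, from between 3.025 and 15.05 CPM in controls to between 28.79 and 28.95 CPM after IC. Their MHCII+CD11c- ranges overlapped. Erythroid and muscle markers summed to at most 24.9 CPM in any library (Hba-a2, 0.543; Tnni2, 0.474). The part of these cells in the differences was not tested.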

How the data were processed

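Synovial macrophages of 3 sorted subsets were profiled by bulk total RNA sequencing. Per the study's methods, reads were trimmed with Trim Galore, checked with FastQC and aligned to mm10 with HISAT2; the submitters' notes also name featureCounts, with no versions, and strand use is not stated. The values are raw counts per gene as deposited by the authors, in 1 table of the whole series, and 17 of 17 single-library files held the same values. The table also had 1 column that matched no sample, with a total of 0, which was not used.

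Counts were filtered (filterByExpr, minimum count 10), scaled by TMM and fitted with 6 group means over 17 libraries (11 residual degrees of freedom) by the robust quasi-likelihood F test of edgeR 4.0.16 in R 4.3.3, with Benjamini-Hochberg adjustment over all genes tested. SE is the log2 difference divided by the root of F. The main contrast gave a weight of 0.5 to each MHCII+ response. The study itself used DESeq2 with sva; DESeq2 1.42.0, limma 3.58.1 (voom) and sva 3.50.0 were alternatives here, beside other size factors, filters, equal depth, a replicate block, 1 MHCII+ group and leaving out each library. Scripts were tested on simulated data. A group with every library at or below 3 counts was set at that floor; floors and 95% exact intervals hold for counting error alone.

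Named genes were Sdc4, Slc37a2 and Map3k6, the called genes, the 10 genes with the smallest p in each direction, and the member of each gene list with the smallest p; others are said to be chosen after their values were seen. Values of 2 list members are not reported here; both stay in the fits and in the counts over lists. The members and lists were chosen with earlier results of these data known. Gene positions come from GENCODE M21 and promoters from RefSeq, both on the GRCm38 (mm10) build. No replicates of 1 group agreed within sampling noise (lowest chi-square per degree of freedom, 6.77).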

Additional observations from a re-analysis of the deposited data

Results flagged for a closer look

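Results with responses that differed between subsets by the test of the difference itself are given with their log2 difference in edgeR's fit. Against the mean of both MHCII+ subsets these were H2-Eb1 (-7.35), Slc37a2 (-2.34), Tgtp2 (-4.75), Runx3 (4.59), Sdc4 (-1.48), Lpl (-2.60) and Phf11d (-2.49). Against MHCII+CD11c- macrophages alone they were H2-Eb1 (-7.00), Tgtp2 (-4.72), Sdc4 (-1.78) and Runx3 (4.47). Against MHCII+CD11c+ macrophages alone they were H2-Eb1 (-7.70), Slc37a2 (-2.999), Map3k6 (2.46), Tgtp2 (-4.79) and Runx3 (4.71). The values of H2-Eb1 stand against libraries with 0 counts and depend on the prior count, so they are no bounds. The 3 sets share the LYVE1+CX3CR1+ libraries and are not independent. The groups of 2 or 3 libraries are too small for Dixon's test of an outlying library.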

How the results depend on the processing

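The 7 calls of the pooled difference became 53 with DESeq2 (which kept all 7), 1 with voom and sample quality weights, 4 with DESeq2-style size factors in edgeR, 18 with no low-count filter, 4 at a minimum count of 30, 4 at an adjusted p under 0.01, 2 at equal depth, 172 with surrogate variables, 13 with 1 MHCII+ group and 4 with upper-quartile size factors, the last chosen after seeing the data. The 4 calls against MHCII+CD11c- macrophages became 38 with DESeq2, 0 with voom (1095 genes at an unadjusted p under 0.05), 2 at a minimum count of 30, 1 at an adjusted p under 0.01, 1 at equal depth and 134 with surrogate variables. The 5 calls against MHCII+CD11c+ macrophages became 44 with DESeq2, 20 with no filter, 3 at equal depth and 48 with surrogate variables. The 0 calls between both MHCII+ responses became 2 with DESeq2. Leaving out each library in turn gave 4 to 42, 1 to 7, 3 to 56 and 0 to 21 calls for these comparisons; MHCII+CD11c+ control 2 gave the 42, the 56 and the 21. A replicate block with 3 levels gave 15, 5 and 23 calls, and a replicate block within treatment 37, 10 and 35, each keeping the 7 genes of the pooled difference. Deviations of same-numbered libraries correlated weakly but always above 0 (0.00738 to 0.286 in controls, 0.00129 to 0.0659 after IC). Differently numbered libraries had -0.15 to 0.0672 in controls and -0.0659 to 0.054 after IC. Whether the numbers pair libraries was not settled, and the main fit has no block. Of 203 values of the 7 called genes under the alternatives, 138 stayed past the threshold, 65 did not and 0 changed sign. Causes of these changes were not tested. Depth limits the low genes: 3 counts equal up to 1.24 CPM in LYVE1+CX3CR1+ IC libraries.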
